A study of Mus musculus with 4 samples.

Results

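Protein taken up whole from milk enters the epithelial cells of the suckling gut by endocytosis, and 6 genes of that uptake are described here by their DNA methylation in the mouse colon: Amn, Cubn, Dab2, Lrp2, Fcgrt and Gif. They were chosen by a list of this pathway because Amn held 1 of the longest runs of adjacent bins that gained methylation in colonic stem cells between birth and weaning. They are 6 of 21418 autosomal protein-coding genes. From 5 kb upstream of each gene to its end they held 1843 bins of 200 bp with a CpG, of which 1206 had at least 10 calls in all 4 libraries and 963 of these also had at least 2 CpGs and were tested. Amn contributed 41 tested bins of its 48 bins with a CpG, Cubn 313 of 752, Dab2 122 of 220, Lrp2 407 of 683, Fcgrt 53 of 70 and Gif 27 of 70.

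Whole-genome bisulfite sequencing gave the methylation level of 4 groups with 1 library each, since bisulfite leaves methylated cytosines as C and turns the others into bases read as T. The groups were intestinal stem cells (ISCs) and differentiated epithelial cells at postnatal day 0 (P0), and both populations at postnatal day 21 (P21), near weaning. All cells came from the colon of offspring of Lgr5-EGFP-CreER mice crossed with wild-type C57 mice, in which the endogenous regulatory sequences of the stem cell gene Lgr5 drive EGFP and an inducible Cre. ISCs were sorted as Lgr5-EGFP+ cells and differentiated cells as EpCAM+ Lgr5-EGFP- cells. Each library was a pool of animals, many litters at P0 and a few reporter-positive offspring at P21, so that no value below carries a spread between animals and every test compares libraries, not conditions. The reporter is active in only some crypts, and the EGFP-negative gate can therefore hold stem cells of silent crypts. The files hold no expression, and the markers of the sorted cells were not tested. A level is an average over all cells of a pool, so a change in every cell and a change in the share of methylated cells cannot be told apart.

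The endocytic complex of the suckling gut binds proteins at the apical membrane and delivers them through clathrin-coated pits to lysosomes, where they are digested inside the cell before the stomach and pancreas have matured. Cubilin, the product of Cubn, is a large peripheral receptor that binds albumin and the complex of vitamin B12 with intrinsic factor, and amnionless, the product of Amn, is the small membrane protein that carries cubilin to the surface and anchors it there. Megalin (Lrp2) is a transmembrane partner of cubilin, Dab2 is the clathrin adaptor that recruits this cargo, the neonatal Fc receptor (Fcgrt) protects and carries maternal IgG, and Gif encodes intrinsic factor itself, which in the mouse is a product of the stomach. DNA methylation of CpGs is low at most CpG-rich promoters and high over most gene bodies.

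The 6 genes differ in how many CpGs precede their start, which is shown because promoters with more CpGs were less methylated (below). The 250 bases upstream of the transcription start site (TSS) were read from the mm9 genome, 5′ to 3′ on the strand of the gene, for 4 of the genes with each CpG in capitals. They held 16 CpGs in Lrp2, 12 in Amn, 2 in Cubn and 0 in Gif, and the corresponding windows held 16 in Dab2 and 5 in Fcgrt.
Lrp2, chr2:69424123-69424372, minus strand: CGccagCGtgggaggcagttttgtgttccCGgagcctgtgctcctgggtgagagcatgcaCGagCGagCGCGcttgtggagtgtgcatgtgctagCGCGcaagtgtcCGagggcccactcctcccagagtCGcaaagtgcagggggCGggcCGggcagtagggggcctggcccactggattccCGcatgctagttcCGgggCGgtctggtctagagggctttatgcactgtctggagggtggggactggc
Amn, chr12:112509072-112509321, plus strand: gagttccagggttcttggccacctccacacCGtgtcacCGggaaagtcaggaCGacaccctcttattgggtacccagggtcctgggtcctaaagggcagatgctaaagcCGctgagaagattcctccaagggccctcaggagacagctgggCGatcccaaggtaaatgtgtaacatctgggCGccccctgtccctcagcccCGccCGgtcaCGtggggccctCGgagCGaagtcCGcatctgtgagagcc
Cubn, chr2:13413552-13413801, minus strand: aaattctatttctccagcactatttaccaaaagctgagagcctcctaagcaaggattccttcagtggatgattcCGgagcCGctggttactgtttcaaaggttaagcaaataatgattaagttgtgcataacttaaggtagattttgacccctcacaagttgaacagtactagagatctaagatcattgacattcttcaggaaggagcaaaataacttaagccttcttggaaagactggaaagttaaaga
Gif, chr19:11821794-11822043, plus strand: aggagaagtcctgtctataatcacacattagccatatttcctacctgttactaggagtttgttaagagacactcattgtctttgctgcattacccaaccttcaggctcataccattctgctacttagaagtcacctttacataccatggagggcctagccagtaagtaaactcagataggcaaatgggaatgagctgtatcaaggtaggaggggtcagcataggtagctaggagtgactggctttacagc

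Promoters, taken as the TSS and 1 kb to either side, ranged from unmethylated in Lrp2 to mostly methylated in Gif. The Lrp2 promoter was at 0.634% in P0 ISCs, 0.670% in P0 differentiated cells, 1.23% in P21 ISCs and 1.05% in P21 differentiated cells. The Dab2 promoter was at 2.26%, 1.37%, 3.86% and 2.19% in the same order of libraries. Both CpG-dense promoters thus stayed below 4% in every library.

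The Amn promoter was low as well, at 19.0% in P0 ISCs, 15.4% in P0 differentiated cells, 12.2% in P21 ISCs and 12.9% in P21 differentiated cells. The Fcgrt promoter was intermediate at 38.8%, 41.6%, 35.2% and 32.4% in that order. The Cubn promoter was at 49.5%, 41.6%, 54.1% and 59.4%, above that of Fcgrt in all libraries but the P0 differentiated cells. The Gif promoter, which has no CpG in the 250 bases before its start, was at 85.4%, 82.5%, 86.6% and 85.8% and was as methylated as a gene body in all 4 libraries.

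Levels are methylated calls in percent of all calls of a region, over bins with 10 or more calls in all 4 libraries, and intervals on levels (Wilson) and differences (Newcombe) are 95% and cover counting error only. They treat each call as independent, although 1 read can give calls at several CpGs, so they can be too narrow. Gene bodies, from 1 kb after the TSS to the gene end, lay between 63.7% and 87.6% in every library for Cubn, Dab2, Lrp2, Fcgrt and Gif. The Amn body was the exception, at 25.7% in P0 ISCs (interval 24.2% to 27.3%), 28.0% in P0 differentiated cells (27.0% to 28.9%), 56.3% in P21 ISCs (54.7% to 57.8%) and 47.6% in P21 differentiated cells (46.4% to 48.7%). It lay below the bodies of the other 5 genes in all 4 libraries, and the plot of region levels shows it apart from them.

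**Figure D1:**
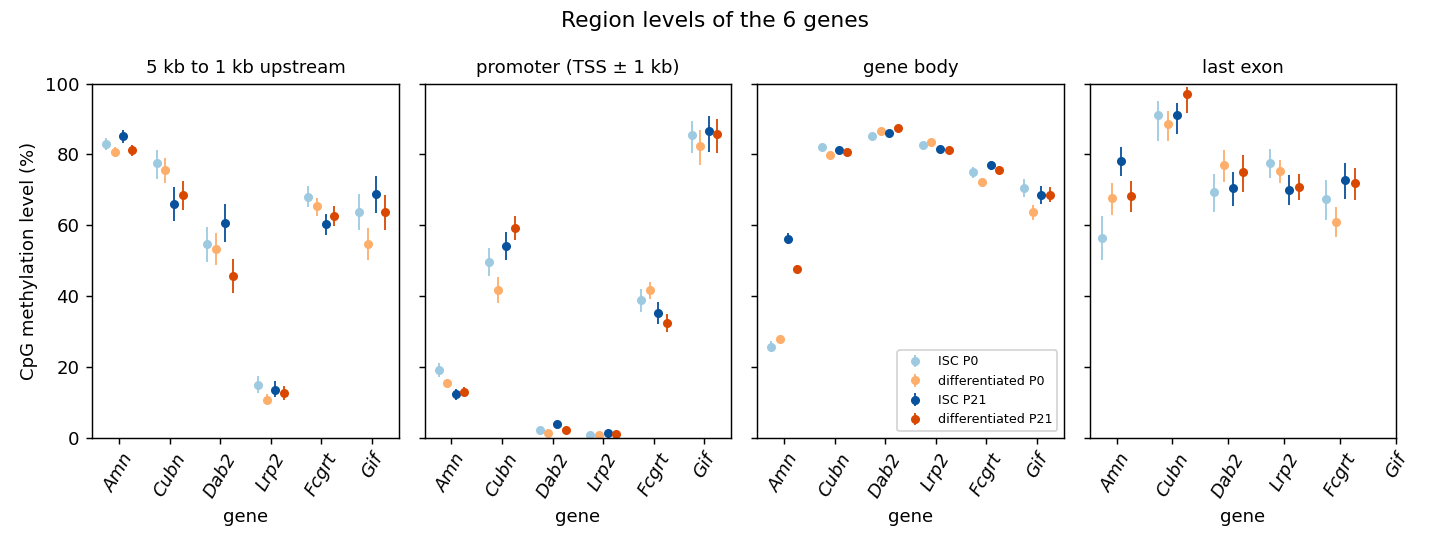
CpG methylation level (%, y axis) of the upstream region, promoter, gene body and last exon of the 6 genes (x axis), with 1 point per library and 95% Wilson intervals that cover counting error only. The promoters of Lrp2 and Dab2 lie below 4% and that of Gif above 82%, and the Amn body rises from 25.7% to 56.3% in ISCs; no bin of the last exon of Gif had enough calls.

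To ask where the 6 genes change with age, each tested bin was compared between P21 and P0 within ISCs and within differentiated cells by a two-sided Fisher's exact test, and a bin was called when its adjusted p (Benjamini-Hochberg over 4076373 autosomal bins) was below 0.05 and its level differed by more than 15 points (percentage points). Over all autosomal bins 1.07% were called as gains and 1.48% as losses in ISCs, and 0.992% and 1.86% in differentiated cells. Of the 963 member bins, 19 gained and 16 lost in ISCs, and 27 gained and 21 lost in differentiated cells. With the calls of each bin thinned to its lowest library, the 48 calls in differentiated cells fell to 22, of which 13 were gains and 9 losses. This was 2.28% of the bins, against 1.24% of all autosomal bins with thinned calls. Without Amn they were 15 of 922, with 6 gains and 9 losses (1.63%, against 1.24%). Amn held 12 of the 19 gains in ISCs, which is what chose the genes, and 9 of the 27 in differentiated cells.

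Without Amn, 7 of 922 bins gained and 16 lost in ISCs (0.759% and 1.74%), near the share of all bins. In differentiated cells 18 of the 922 gained and 21 lost (1.95% and 2.28%), and the gains were spread over Cubn with 7, Fcgrt with 5, and Dab2 and Lrp2 with 3 each. Of the 7 gains and 16 losses in ISCs, 2 and 6 were called in differentiated cells too (28.6% and 37.5%), against 23.8% and 45.4% of the gains and losses over all autosomal bins. The median change over the 922 bins was 0.196 points in ISCs and 0 points in differentiated cells, against medians of 0 and -0.0744 points over all autosomal bins. The plot of both changes shows the bins of Cubn, Dab2, Lrp2 and Gif crowded around the origin with single bins far from it, and those of the Amn run apart among the joint gains.

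**Figure D2:**
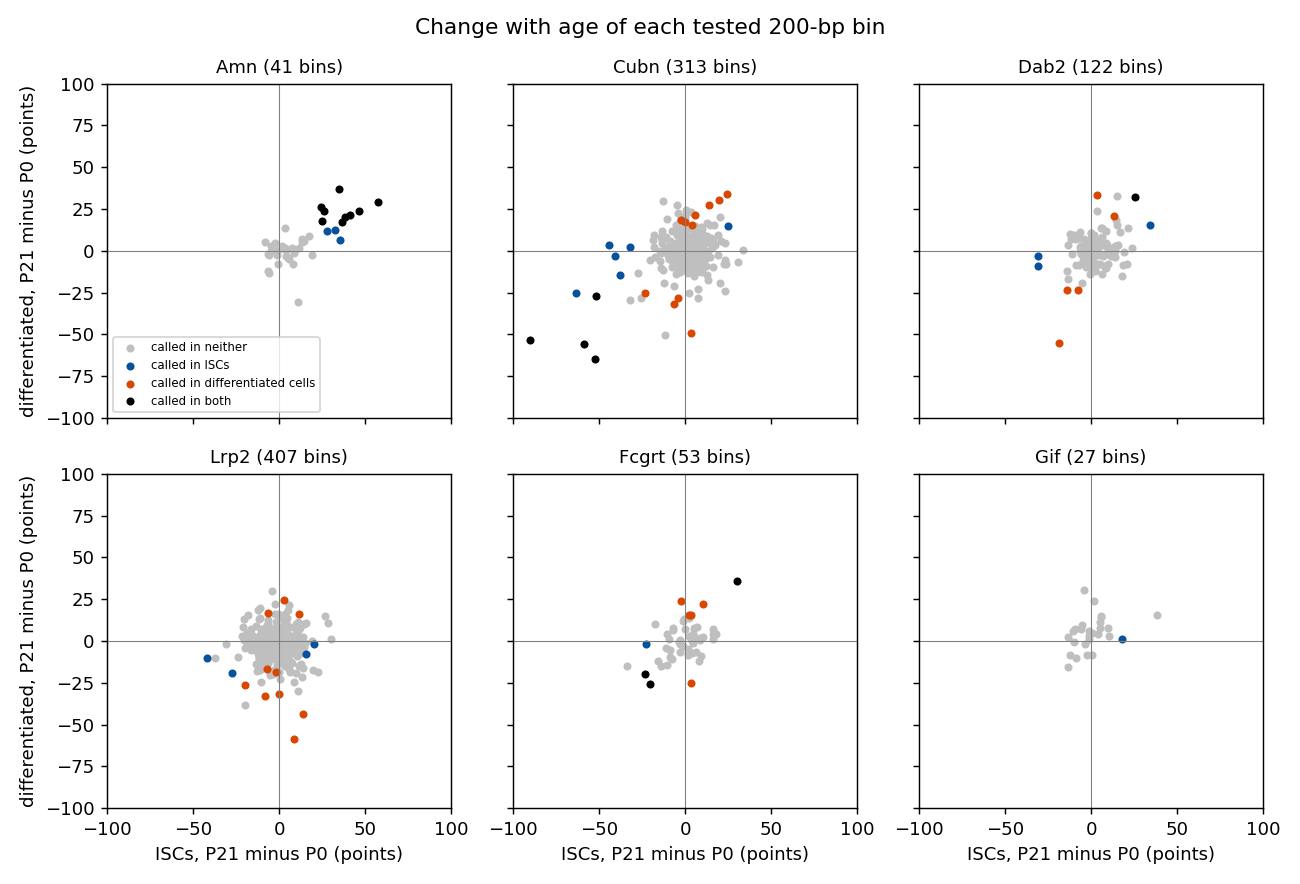
Change with age of every tested 200-bp bin of the 6 genes, in ISCs (x axis, P21 minus P0, percentage points) and in differentiated cells (y axis, same unit), coloured by where the bin was called. The 12 called Amn bins lie to the upper right and 9 of them were called in both populations; 2 of the 7 gains and 6 of the 16 losses of the other 5 genes in ISCs were called in differentiated cells too.

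Amn is a short gene of 5316 bp with 12 exons at chr12:112509322-112514637 (mm9, plus strand). Its run of gaining bins covered 12 adjacent bins at chr12:112512001-112514400, which is 2400 bp with 194 CpGs and 66.4% G and C. The run began 2679 bp after the TSS in intron 3, spanned exons 4 to 12, and ended 237 bp before the gene end. By the CpG density used here to define CpG islands (CGIs, at least 25 CpGs in 500 bp), 11 of its 12 bins were CGI bins. Among 38462 gaining runs in ISCs, of which 34559 were single bins, 4 had 12 or more bins and 1 was longer.

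Over the run, methylation was at 16.4% in P0 ISCs and 52.7% in P21 ISCs, a difference of 36.3 points (interval 33.9 to 38.6). These values chose the gene and are given without a test. In differentiated cells, whose levels did not define the run, it was at 23.9% at P0 and 46.6% at P21. The difference was 22.7 points (21.1 to 24.2). The calls behind these levels were 2270, 2872, 7321 and 6059, so that the differentiated cells were covered more deeply than the ISCs. The values in differentiated cells are no independent test of the gain. Tested bins needed enough calls in every library, and the genes were chosen with earlier results of these data known. The paper describes the pooling by age and not by population, so both populations may come from the same animals.

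Bin by bin, the level in P0 ISCs formed a trough that was filled at P21 but not levelled. In the plot of the locus the run starts at 38.3% in P0 ISCs in its first bin, 20.6% in the second and 9.09% in the third, and the level reached 2.04% in the bin centred 3978 bp after the TSS before it climbed back to 33.3% in the last bin. In P21 ISCs the same 4 bins were at 70.4%, 46.7%, 45.6% and 48.4%, and the last bin was at 68.3%. The flanking bins marked the edges of the trough: the bin before the run was at 66.4% in P0 ISCs and 81.0% in P21 ISCs, and the bin after it at 75.2% and 82.8%, and neither was called in ISCs or in differentiated cells. The next bin before the run, 2378 bp after the TSS, was at 76.1%, 71.6%, 79.4% and 85.4% in P0 ISCs, P0 differentiated cells, P21 ISCs and P21 differentiated cells, and the one before that had only 9 calls in P0 ISCs and was not tested. The next 2 bins after the run lay mostly beyond the gene end, at 50%, 54.2%, 48.2% and 58.7% and at 71.3%, 60.3%, 75.9% and 74.7%. None of the tested flanking bins was called in any comparison.

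**Figure D3:**
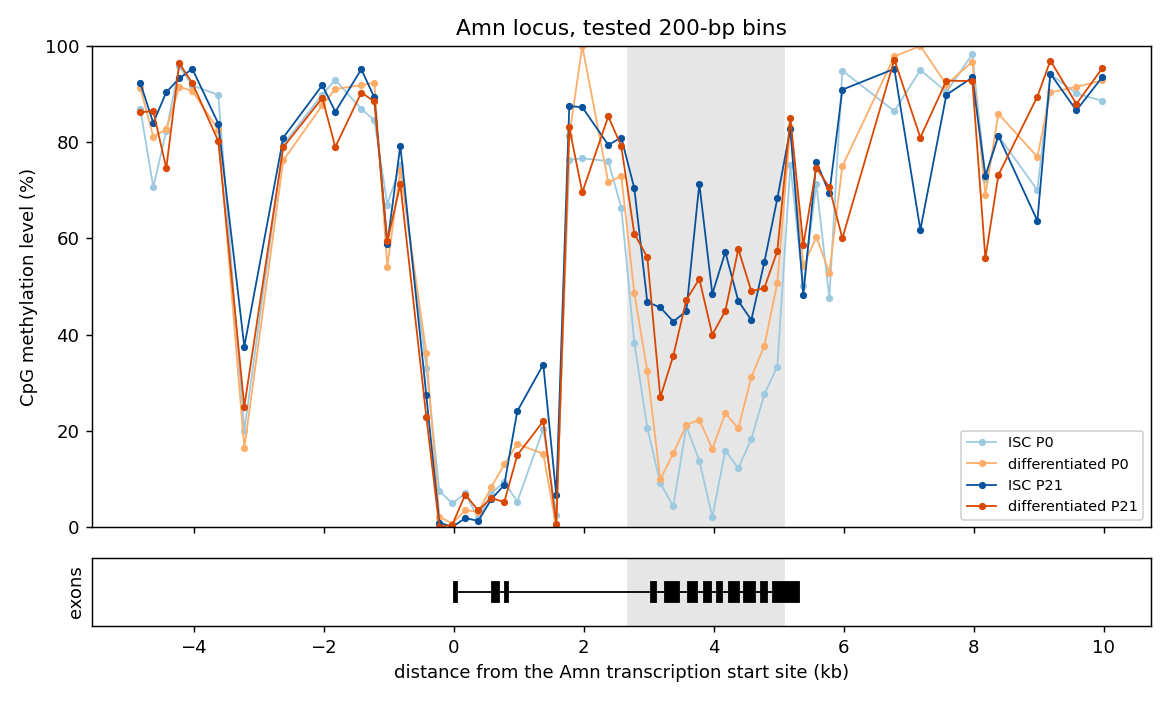
CpG methylation level (%, upper y axis) of the tested 200-bp bins from 5 kb upstream to 10 kb downstream of the Amn TSS (x axis, kb), with 1 line per library, the run shaded and the exons drawn as boxes below; lines join tested bins only. All 4 libraries lie below 34% from the TSS to 1578 bp after it and above 66% from there to the run, and within the run both P21 libraries lie above both P0 libraries in all bins.

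The bin with the largest difference in ISCs and the bin just before the run are shown because they differ in CpG content as well as in level. The bin of the run lay over the end of exon 6, intron 6 and the start of exon 7, 3778 bp after the TSS, and held 22 CpGs. The bin before the run lay in intron 3 and held 6.
Amn, bin of the run, chr12:112513001-112513200, plus strand, CpGs in capitals: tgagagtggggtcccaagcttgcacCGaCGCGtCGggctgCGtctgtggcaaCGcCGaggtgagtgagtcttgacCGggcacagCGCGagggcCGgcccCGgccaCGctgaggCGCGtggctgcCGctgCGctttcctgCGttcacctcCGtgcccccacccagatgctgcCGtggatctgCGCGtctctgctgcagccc
Amn, bin before the run, chr12:112511801-112512000, plus strand, CpGs in capitals: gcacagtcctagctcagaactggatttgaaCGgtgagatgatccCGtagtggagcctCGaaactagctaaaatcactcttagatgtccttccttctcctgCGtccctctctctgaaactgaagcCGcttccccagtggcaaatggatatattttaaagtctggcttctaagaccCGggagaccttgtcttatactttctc

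In the CpG-rich bin the level was 13.8% in P0 ISCs, 22.3% in P0 differentiated cells, 71.3% in P21 ISCs and 51.6% in P21 differentiated cells. Its gain in differentiated cells was 29.3 points (adjusted Fisher p = 4.92e-28). The largest gain of Amn in differentiated cells was in the bin 4378 bp after the TSS, over exons 9 and 10, from 20.5% to 57.8% (adjusted Fisher p = 1.92e-37), where ISCs were at 12.2% and 47.0%. Altogether 9 of the 12 bins of the run were called in differentiated cells and all 12 were higher at P21. The 3 that were not called were the first and the last pair of bins, with differences of 12.4, 12.04 and 6.60 points.

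The run was also described CpG by CpG, with ISC values that come from the calls on which the run was chosen. Of the 194 CpGs of the run, 120 had 10 or more calls in all 4 libraries. All 120 were higher at P21 in ISCs, 104 of them by more than 15 points, with a median of 38.4 points, and in differentiated cells 111 were higher and 9 lower, with a median of 19.97 points and 80 above 15 points. The largest difference in ISCs was at the CpG at chr12:112513106 in intron 6, from 7.69% of 13 calls to 93.8% of 16, where differentiated cells went from 18.9% of 37 calls to 63.6% of 33. The smallest was at chr12:112513305 in intron 7, from 11.8% of 17 calls to 14.3% of 21, where differentiated cells went from 6.67% of 30 to 22.9% of 35.

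**Figure D4:**
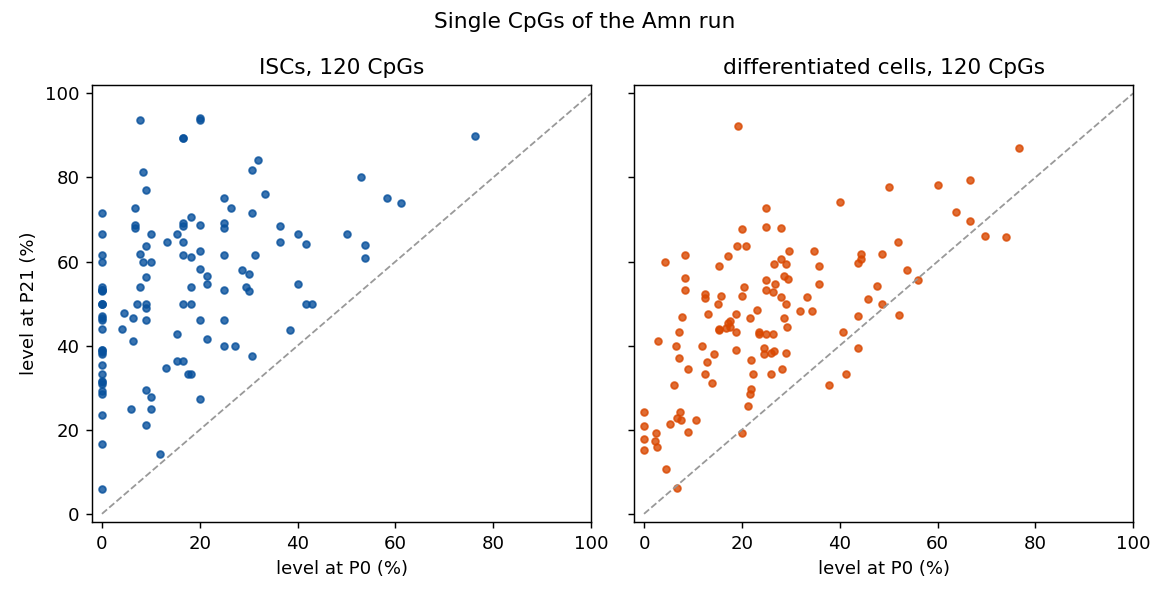
Methylation level at P0 (x axis, %) and at P21 (y axis, %) of the 120 CpGs of the Amn run with 10 or more calls in all libraries, in ISCs (left) and differentiated cells (right), with the line of equal levels dashed. All 120 points lie above the line in ISCs, whose calls chose the run, and 111 in differentiated cells.

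At P21 the CpGs were spread over intermediate levels rather than fully methylated. In P0 ISCs 52 of the 120 CpGs were below 10% and 0 above 80%. In P21 ISCs 1 was below 10% and 9 above 80%, with quartiles at 41.5% and 66.7%. In P21 differentiated cells 1 was below 10% and 2 above 80%, with quartiles at 36.9% and 58.8%.

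The size of the gain differed between the strands that the calls came from. In ISCs the run went from 17.5% to 48.5% on plus-strand calls and from 15.7% to 55.1% on minus-strand calls. In differentiated cells it went from 26.7% to 41.5% and from 21.7% to 49.7%. All 12 bins in ISCs and the 9 called bins in differentiated cells were higher at P21 on either strand alone. The bin 3178 bp after the TSS had the widest spread in differentiated cells, from 8.25% to 13.9% on the plus strand and from 14.5% to 53.2% on the minus strand, and the cause was not tested.

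Between the populations, the run was higher in differentiated cells than in ISCs at P0 by 7.54 points (interval 5.69 to 9.31; higher in 12 of 12 bins) and lower at P21, with a difference of -6.09 points (-8.30 to -3.87; lower in 8 of 12 bins). The body as a whole went from a gap of 2.27 points (0.435 to 4.07) to -8.67 points (-10.6 to -6.72), of which the first was -0.376 points on minus-strand calls alone. Both gaps use the ISC libraries on which the run was chosen, and such a choice favours these signs by itself, so they are a description. At P21, 2 bins of the run passed the calling limits as lower in differentiated cells, those 3178 and 3778 bp after the TSS, at 26.9% against 45.6% and 51.6% against 71.3%.

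The last exon of Amn, of 411 bp, was described by 2 bins. It was at 56.4% in P0 ISCs, 67.6% in P0 differentiated cells, 78.3% in P21 ISCs and 68.3% in P21 differentiated cells. The change with age was 0.776 points (interval -5.48 to 7.05) in differentiated cells and 21.9 points (14.4 to 29.2) in ISCs. The ISC value belongs to the choice of the gene. In differentiated cells both bins were higher at P21, with a median change of 4.28 points. The less methylated bin held 197 calls against 213 in the other at P0, and 265 against 174 at P21. The pooled 0.776 points thus depends on where the calls fell and is smaller than the change of either bin.

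Outside the run, the Amn locus was described by its promoter, its flanks and its neighbours. From the TSS to the run, 11 tested bins held no call in any comparison. The level of this span changed with age by 2.64 points (interval -0.588 to 5.83) in ISCs and 4.03 points (1.65 to 6.43) in differentiated cells. In differentiated cells its more methylated part, the body before the run, held 916 of 2780 calls at P0 and 1024 of 2158 at P21. The pooled rise thus reflects where the calls fell and is no gain of both parts. The promoter, which overlaps the start of the span, changed by -2.49 points in these cells. Within this span, the body before the run changed by 12.8 points (7.51 to 18.0) in ISCs and -0.200 points (-4.64 to 4.24) in differentiated cells. The second value hides most of its bins. Of the 19 tested bins of the whole body, 18 were higher at P21 in differentiated cells. The 1 lower bin lay before the run, 1978 bp after the TSS, at 100% of 25 calls at P0 and 69.6% of 23 at P21. In the promoter, the bin at -421 bp from the TSS went from 36.1% to 22.9% in differentiated cells (adjusted Fisher p = 0.000178), a difference under the limit of 15 points. The region from 5 kb to 1 kb upstream was at 83.0%, 80.7%, 85.2% and 81.1% in P0 ISCs, P0 differentiated cells, P21 ISCs and P21 differentiated cells. Within 20 kb on either side, 162 bins outside the run were tested, with 2 gains and 1 loss in ISCs (1.23% and 0.617%, against 1.07% and 1.48% of all autosomal bins) and 1 gain and 1 loss in differentiated cells (0.617% each, against 0.992% and 1.86%).

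The neighbours of Amn on chromosome 12 were Traf3, which ends 3958 bp upstream and encodes a signalling adaptor of the tumour necrosis factor receptor family, the non-coding RNA A230087F16Rik 8336 bp downstream, and the kinase gene Cdc42bpb 16546 bp downstream. The part of Traf3 within 20 kb of Amn held 0 called bins of 64 in ISCs and 1 gain in differentiated cells. A230087F16Rik held 2 gains in ISCs among 37 bins. It overlaps the end of Cdc42bpb, which had 17 bins within 20 kb, and both genes share the 1 loss in ISCs and the 1 loss in differentiated cells.

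By the sum of absolute differences in body level over the 4 libraries, the genes most like Amn among 16193 were Mex3a, Nags, Hoxd3, Slc16a11 and Snx20, at distances of 10.7, 11.3, 17.5, 21.9 and 25.5 points. The body of Mex3a, which encodes an RNA-binding protein, was at 31.6% in P0 ISCs, 28.1% in P0 differentiated cells, 57.9% in P21 ISCs and 44.7% in P21 differentiated cells. That of Nags, the N-acetylglutamate synthase of the urea cycle, was at 31.5%, 32.6%, 57.1% and 47.7%. All 4 levels were used to find these genes, so their likeness to Amn is given by that measure and is no separate result. The Amn body differed between P21 and P0 by 19.6 points (interval 18.1 to 21.1) in differentiated cells, at the 99.81 percentile of all genes. In ISCs it differed by 30.6 points. Both values contain the run that chose the gene, so the percentile is a description.

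Cubn, the receptor that amnionless anchors, held called bins mostly in its introns. The gene has 67 exons over 215587 bp at chr2:13197965-13413551 (minus strand), and 0 of its 313 tested bins were CGI bins. In ISCs 1 bin gained and 9 lost (0.319% and 2.88% of its bins, against 1.07% and 1.48% of all autosomal bins). In differentiated cells 7 gained and 8 lost (2.24% and 2.56%, against 0.992% and 1.86%). Of the 9 losses in ISCs, 4 were called as losses in differentiated cells, which is 44.4% of the first list and 50% of the second, against 45.4% and 36.1% over all autosomal bins.

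The largest loss in ISCs and the 3 largest in differentiated cells sat together in intron 28. The bin 94450 bp after the TSS was at 95.1% (39 of 41 calls) in P0 ISCs, 73.8% (31 of 42) in P0 differentiated cells, 5.08% (3 of 59) in P21 ISCs and 20.7% (6 of 29) in P21 differentiated cells. This is the largest loss of Cubn in ISCs, at 90.0 points (adjusted Fisher p = 2.76e-18), and it was called in differentiated cells too (adjusted Fisher p = 0.000954). The bin beside it, 94650 bp after the TSS, was at 60.2%, 58.1%, 1.53% and 2.42% in the same order (adjusted Fisher p = 2.32e-20 in ISCs and 1.83e-25 in differentiated cells).

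The bin 95250 bp after the TSS was at 77.8%, 94.4%, 25.3% and 29.7%, and its loss was the largest of Cubn in differentiated cells (adjusted Fisher p = 1.94e-08). Both P0 libraries were thus well above both P21 libraries in all 3 bins. On 1 strand alone the losses kept their direction wherever 10 calls remained in both libraries. The sequences of the first pair of bins are shown because these few CpGs carry the change: 3 in each bin, against 22 in the Amn bin above.
Cubn, chr2:13319001-13319200, minus strand, CpGs in capitals: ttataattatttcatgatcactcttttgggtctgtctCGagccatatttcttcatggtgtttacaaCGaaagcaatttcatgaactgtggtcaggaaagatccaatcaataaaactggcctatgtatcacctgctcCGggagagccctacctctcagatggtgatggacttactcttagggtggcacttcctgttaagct
Cubn, chr2:13318801-13319000, minus strand, CpGs in capitals: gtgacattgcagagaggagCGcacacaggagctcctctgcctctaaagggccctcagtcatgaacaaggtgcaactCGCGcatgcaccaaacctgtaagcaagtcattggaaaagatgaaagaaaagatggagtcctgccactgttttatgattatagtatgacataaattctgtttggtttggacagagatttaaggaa

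**Figure D5:**
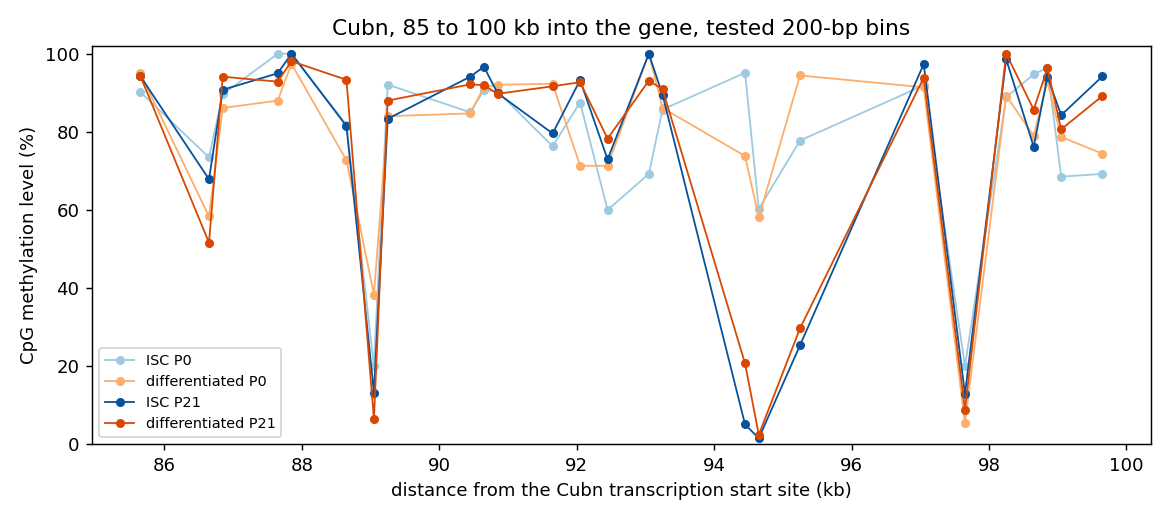
CpG methylation level (%, y axis) of the tested 200-bp bins of Cubn between 85 and 100 kb after its TSS (x axis, kb), with 1 line per library; lines join tested bins, and gaps between points hold bins with too few CpGs or calls. From 94450 to 95250 bp both P21 libraries lie below both P0 libraries, while the bin at 97650 bp is low in all 4 libraries.

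Other losses of Cubn lay near its start, with sizes in ISCs of 63.2 points upstream of the TSS and 52.0 points in intron 6, and the rest lay elsewhere in the gene, over introns and exon edges. In intron 6, the bin 7250 bp after the TSS was at 55.1% in P0 ISCs, 26.8% in P0 differentiated cells, 3.17% in P21 ISCs and 0% (0 of 72 calls, which allows up to 4.17%) in P21 differentiated cells. It lost in both populations (adjusted Fisher p = 1.52e-09 and 1.66e-05), and at P0 it was lower in differentiated cells by 28.3 points (adjusted Fisher p = 0.0371). Upstream, the bin at -1349 bp from the TSS was at 82.9%, 57.9%, 19.6% and 32.9% in the same order and lost in ISCs (adjusted Fisher p = 3.73e-10), with an adjusted Fisher p of 0.0666 in differentiated cells.

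In contrast to these bins, the Cubn promoter was higher at P21 in differentiated cells, by 17.7 points (interval 12.7 to 22.6, at the 99.56 percentile of promoters), against 4.64 points (-0.949 to 10.2) in ISCs. Its called bin covered exon 1 and went from 53.4% to 70.5% in differentiated cells (adjusted Fisher p = 0.000357), while ISCs were at 64.2% and 64.3%. This gain rested on minus-strand calls, which went from 50.6% of 316 to 70.0% of 330, while the few plus-strand calls went from 85.2% of 27 to 78.3% of 23. The largest gain of Cubn in differentiated cells was in intron 60, from 43.3% to 77.3% (adjusted Fisher p = 0.0231), and its only gain in ISCs was in intron 28, from 69.2% to 94.2% (adjusted Fisher p = 0.00732). Over its whole body Cubn moved by -0.802 points (-1.53 to -0.0726) in ISCs, which became 0.274 points as a mean of bin levels, and by 1.06 points (0.398 to 1.72) in differentiated cells.

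Lrp2, which encodes megalin, has 79 exons over 161726 bp at chr2:69262397-69424122 (minus strand). Its region from 5 kb to 1 kb before the TSS was above its unmethylated promoter in every library but was the lowest such region of the 6 genes. This region was at 14.99% in P0 ISCs, 10.8% in P0 differentiated cells, 13.6% in P21 ISCs and 12.6% in P21 differentiated cells. The body of Lrp2 was at 82.7%, 83.4%, 81.7% and 81.2%. Of its 407 bins, 2 gained and 2 lost in ISCs (0.491% each, against 1.07% and 1.48% of all autosomal bins) and 3 gained and 7 lost in differentiated cells (0.737% and 1.72%, against 0.992% and 1.86%). None of these 4 ISC calls was called in differentiated cells, against 23.8% of the gains and 45.4% of the losses in ISCs over all autosomal bins.

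The largest change of Lrp2 in ISCs was a loss in intron 33, from 71.3% of 115 calls to 29.0% of 100 (adjusted Fisher p = 1.96e-07), where differentiated cells were at 48.6% and 38.2%. In differentiated cells it was a loss in intron 15, from 58.6% of 29 calls to 0% of 19, which allows up to 15.8% (adjusted Fisher p = 0.00163), where ISCs were at 13.0% and 21.4%. The largest gains were 19.9 points around exon 2 in ISCs, from 72.9% to 92.8% (adjusted Fisher p = 0.0393), and 24.2 points in intron 9 in differentiated cells, from 50.5% to 74.8% (adjusted Fisher p = 0.0175). The last exon differed by -7.65 points (interval -13.4 to -1.81) between P21 and P0 in ISCs and by -4.50 points (-9.41 to 0.393) in differentiated cells.

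Dab2, the adaptor, starts from more than 1 promoter. The transcript with the longest coding sequence has 15 exons and begins at chr15:6336598 (plus strand), and an outer start lies 86810 bp before it. The inner promoter was unmethylated, as given above, whereas the promoter of the outer start was at 81.1% in P0 ISCs, 86.6% in P0 differentiated cells, 90.7% in P21 ISCs and 85.2% in P21 differentiated cells. Of the 122 bins, 2 gained and 2 lost in ISCs (1.64% each, against 1.07% and 1.48% of all autosomal bins), and 3 gained and 3 lost in differentiated cells (2.46% each, against 0.992% and 1.86%).

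Both gains of Dab2 in ISCs, and 2 of its 3 gains in differentiated cells, lay in intron 1 at the downstream edge of the unmethylated promoter. The bin 1102 bp after the TSS was at 31.6%, 39.0%, 65.8% and 54.4% in P0 ISCs, P0 differentiated cells, P21 ISCs and P21 differentiated cells, and gained in ISCs (adjusted Fisher p = 0.00136). The next, 1302 bp after the TSS, was at 34.3%, 45.3%, 59.6% and 77.8% and was called in both populations (adjusted Fisher p = 0.0452 in ISCs and 0.0474 in differentiated cells). Nearer to the TSS, the bin at 702 bp was at 5.13%, 4.55%, 18.2% and 25.4% and was called in differentiated cells alone (adjusted Fisher p = 0.0156). In each of these 3 bins both P21 libraries were above both P0 libraries.

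Further into intron 1, Dab2 gained most in differentiated cells 4702 bp after the TSS, from 63.2% to 96.5% (adjusted Fisher p = 0.000815), and lost most 20502 bp after it, from 85.2% of 27 calls to 30% of 20 (adjusted Fisher p = 0.00948). The largest loss in ISCs, 16302 bp after the TSS, went from 97.0% to 66.1% (adjusted Fisher p = 0.0232). Its body stayed between 85.2% and 87.6%.

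Fcgrt, the receptor for IgG, is a gene of 10830 bp with 7 exons at chr7:52348363-52359192 (minus strand). In ISCs 1 of its 53 bins gained and 3 lost (1.89% and 5.66%, against 1.07% and 1.48% of all autosomal bins), and in differentiated cells 5 gained and 3 lost (9.43% and 5.66% of its bins, against 0.992% and 1.86% of all autosomal bins). The gain in ISCs and 2 of the 3 losses were called in differentiated cells too, as were 23.8% of the gains and 45.4% of the losses over all autosomal bins. Gains lay toward the end of the gene and losses toward its start and upstream of it, with 1 exception, a gain at -3508 bp from the TSS in differentiated cells.

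The largest gain in both populations was the same bin of intron 5, 9491 bp after the TSS. It was at 29.3% in P0 ISCs, 26.5% in P0 differentiated cells, 59.5% in P21 ISCs and 62.2% in P21 differentiated cells (adjusted Fisher p = 8.48e-06 and 3.57e-16). Its sequence is shown because it held 7 CpGs and is the only bin outside Amn, besides the Dab2 bin at 1302 bp, that gained in both populations.
Fcgrt, chr7:52349601-52349800, minus strand, CpGs in capitals: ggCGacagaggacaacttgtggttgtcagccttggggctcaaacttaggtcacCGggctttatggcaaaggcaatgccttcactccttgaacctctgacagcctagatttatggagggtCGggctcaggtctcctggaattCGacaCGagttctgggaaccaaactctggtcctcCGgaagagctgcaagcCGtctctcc

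At the other end, the bin over intron 2 and exon 3, 1091 bp after the TSS, was at 62.6%, 52.7%, 39.4% and 33.2% in P0 ISCs, P0 differentiated cells, P21 ISCs and P21 differentiated cells, and lost in both populations (adjusted Fisher p = 5.32e-06 and 1.63e-08). In differentiated cells the minus-strand calls alone, 52 and 69 of them, went from 36.5% to 42.0%, so that this loss rested on the plus strand. The bin at -2308 bp from the TSS was at 27.7%, 33.0%, 7.10% and 7.19% and was the largest loss in differentiated cells (adjusted Fisher p = 1.80e-06; 0.000399 in ISCs). The promoter as a whole differed between P21 and P0 by -9.24 points (interval -12.7 to -5.74) in differentiated cells and by -3.61 points (-8.17 to 0.981) in ISCs, and the last exon by 10.9 points (4.51 to 17.1) and 5.37 points (-2.12 to 12.9). On minus-strand calls alone the change of the last exon in differentiated cells was -6.31 points.

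Gif, the intrinsic factor gene, lies at chr19:11822044-11837937 (plus strand) and has 9 exons. It was thinly covered, with 27 tested bins and none in the last exon. In ISCs 1 bin gained and 0 lost (3.70% and 0%, against 1.07% and 1.48% of all autosomal bins). The gain lay over exon 4, from 1.61% of 62 calls to 19.7% of 61 (adjusted Fisher p = 0.0389), where differentiated cells were at 10.8% and 12.1%. In differentiated cells 0 bins were called, against 0.992% gains and 1.86% losses over all autosomal bins, and the body moved from 63.7% to 68.7%, by 4.997 points (interval 1.963 to 8.01), while 20 of the 27 bins were higher at P21. In ISCs the body differed by -1.87 points (-5.43 to 1.69), and 12 of the 27 bins were higher at P21 and 15 lower.

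Differentiated cells were then compared with ISCs of the same age. At P0, 3 of the 963 bins were higher and 2 lower in differentiated cells (0.312% and 0.208%), against 0.288% and 0.220% of all autosomal bins. At P21, 0 were higher and 4 lower (0.415%), against 0.0711% and 0.111%, and 2 of these 4 were the Amn bins above, which rest on the ISC library that chose the run. Without Amn, 2 of 922 bins were lower (0.217%). Over the tested bins the medians of both gaps were -0.187 and -0.428 points. The shares at P0 were near those of all bins. With the calls of each bin thinned to its lowest library, the 5 calls at P0 became 0 (against 0.0908% of all bins). The 4 at P21 became 2 (0.208%, against 0.0393%), both in Amn.

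Apart from Amn and the Cubn bin in intron 6, all of these bins were in Lrp2, and none of the P0 calls, that Cubn bin included, passed with thinned calls. At P0 its intron 9 held a bin at 28.8% in ISCs and 55.8% in differentiated cells (adjusted Fisher p = 0.0452) and elsewhere a bin at 94.4% and 71.8% (adjusted Fisher p = 0.0259), and intron 3 a bin at 49.4% and 76.1% (adjusted Fisher p = 0.000303). At P21 the bin in intron 1, 4421 bp after the TSS, was at 94.6% of 37 calls in ISCs and 51.7% of 29 in differentiated cells (adjusted Fisher p = 0.0414). None of the P0 differences was called at P21. Over all autosomal bins, 0.725% of those higher in differentiated cells at P0 and 1.08% of those lower were called the same way at P21. The upstream region of Dab2 differed between differentiated cells and ISCs at P21 by -15.1 points (interval -22.2 to -7.70), with no bin called. Of its 6 tested bins, 4 were lower and 2 higher in differentiated cells, with a median gap of -3.17 points, so the pooled gap is not one shared by its bins.

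A list of 25 further genes of protein uptake, trafficking, lysosomal digestion, immunoglobulin transport and vitamin B12 handling held 2218 tested bins. In ISCs 36 gained and 60 lost (1.62% and 2.71%, against 1.07% and 1.48% of all autosomal bins), in 12 and 14 of the genes, and 5 genes held no call. In differentiated cells 44 gained and 60 lost (1.98% and 2.71%, against 0.992% and 1.86%). At P0, 4 bins were higher in differentiated cells than in ISCs and 10 lower (0.180% and 0.451%, against 0.288% and 0.220%), and at P21, 0 were higher and 4 lower (0.180%, against 0.111%). The 3 genes with the most calls in ISCs were Pigr with 16 of 75 tested bins, Myo6 with 12 of 313 and Pllp with 10 of 87. Pigr alone held 16 of the 60 losses of the list in ISCs and 20 of the 60 in differentiated cells. The loss shares of the list thus rest in part on this 1 gene, and shares without it were not computed.

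Pigr encodes the polymeric immunoglobulin receptor, which carries IgA and IgM out to the lumen, and all of its bins called with age were losses. Its promoter was at 80.8% in P0 ISCs, 79.2% in P0 differentiated cells, 27.1% in P21 ISCs and 11.2% in P21 differentiated cells, and 16 of its 75 bins lost in ISCs and 20 in differentiated cells. The bin over exon 1 was at 60%, 64.0%, 4.17% and 0.813%. The promoter of Fcgrt, the IgG receptor, moved by -3.61 and -9.24 points over the same interval, as given above, against -53.7 points (interval -58.8 to -47.9) and -68.0 points (-71.6 to -63.8) for Pigr.

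Pllp encodes plasmolipin, a membrane protein of the endosomal pathway of absorptive cells, and 9 of its 10 calls in ISCs were gains. Of these gains, 4 lay between 1041 and 1641 bp after the TSS, just downstream of a promoter at 9.20% in P0 ISCs and 9.67% in P21 ISCs, 1 lay inside that promoter at 841 bp, and 4 lay 7841 to 17041 bp after the TSS. For instance, the bin 1241 bp after the TSS was at 23.8%, 21.2%, 72.3% and 63.2% in P0 ISCs, P0 differentiated cells, P21 ISCs and P21 differentiated cells. Myo6, the motor that draws endocytic vesicles inward, held 5 gains and 7 losses in ISCs, with its promoter below 1% in every library. Named for their roles after their values were seen, B2m, the light chain that pairs with the neonatal Fc receptor, held 0 gains and 5 losses among 28 bins in ISCs and 0 and 4 in differentiated cells. Prdm1, a repressor of the adult enterocyte programme in the suckling gut that was named in the same way, held 5 gains and 3 losses among 85 bins in ISCs and 9 and 2 in differentiated cells. The gains and losses among all autosomal bins were the 1.07% and 1.48% in ISCs and 0.992% and 1.86% in differentiated cells given above.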

How the data were processed

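Genomic DNA of sorted ISCs and differentiated epithelial cells was ligated to adaptors, converted with the EZ DNA Methylation-Direct kit, amplified and sequenced as 100-bp paired-end reads. The authors trimmed the reads and mapped them to mm9, and the submitters' processing notes name Bismark and Bowtie. Tool versions and the handling of duplicates were not given in the sources used here. At every CpG cytosine, strand by strand, the authors deposited 1 count of reads covering it and 1 of reads in which it was methylated, called calls here. The deposited fraction equalled their ratio and was not used.

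The 4 libraries held 1023427645 to 1188114423 calls, and the median tested bin had 55 to 81. Strands were summed, and 0.469% to 0.860% of the autosomal positions of a library, at no reference CpG, were left out. Fixed bins of 200 bp tiled each chromosome. Tested bins were autosomal with at least 2 CpGs and 10 calls in all 4 libraries. The bin size, the CpG minimum and the 15-point difference follow the study, whose own analysis differs in its read minimum, and the two-sided Fisher's exact test with Benjamini-Hochberg adjustment over 4076373 bins was added (Python 3.11.15, numba 0.67.0, scipy 1.17.1). Tests and intervals treat each call as independent, but 1 read can give calls at several CpGs. For this reason p-values can be too small and intervals too narrow, and duplicate reads, if they remained, would add to this. Region levels pooled the bins with 10 calls, and percentiles rank a gene among 20881 promoters, 18961 bodies and 19508 last exons. Gene models were GENCODE M1, taking the transcript with the longest coding sequence.

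The 6 genes, the list of 25 and the alternatives were chosen with earlier results of these data known. Bins were named by a rule: the largest called difference of each gene in each direction and comparison, and the run of Amn with its flanks. Bins beside such a bin, or called in both populations, were added after their values were seen.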

Additional observations from a re-analysis of the deposited data

Results flagged for a closer look

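A result was singled out where the change with age had opposite signs in the 2 populations, or the gap between populations had opposite signs at the 2 ages, with both counting intervals away from 0. With 1 library per group, the difference between the 2 effects was not tested. At P0 the Amn run was higher in differentiated cells than in ISCs by 7.54 points, and at P21 the gap was -6.09. In the Amn body it was 2.27 and -8.67 points, and in the last exon of Amn 11.1 points (interval 3.43 to 18.8) and -9.95 points (-15.8 to -3.94). The run lies within the body and overlaps the last exon, so these are 1 pattern seen over 3 windows, and the ISC libraries behind it also chose the run. On minus-strand calls alone the gap of the body at P0 was -0.376 points, and with bins shifted by 100 bp that of the last exon at P21 was 1.16 points, so that the signs of these windows were no longer opposite. Without a shift, the 2 bins of the last exon went opposite ways at P21, with gaps of -10.9 and 2.27 points. ISCs had 123 and 273 calls in these bins and differentiated cells 265 and 174, so the pooled gap depends on where the calls fell. Between P0 and P21 the body of Cubn moved by -0.802 points in ISCs, against 1.06 in differentiated cells. As a mean of bin levels the ISC change was 0.274 points, so that both populations then moved the same way.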

How the results depend on the processing

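In ISCs the 35 member bins called with age became 22 at more than 30 points, 115 at 15 points without a test and 20 with at least 4 CpGs. These counts include Amn bins that chose the genes. Without Amn, the 22 were 14 of 922 (1.52%, against 1.22% of all autosomal bins) and the 115 were 101 of 922 (10.95%, against 13.5%). The 20 were 8 of 328 (2.44%, against 4.16% of all such bins). The 48 called in differentiated cells became 16, 122 and 28 under the same settings and 22 with calls thinned to the lowest library. Without Amn, the 16 were 15 (1.63%, against 1.06%) and the 122 were 112 (12.1%, against 11.99%). The 28 were 18 (5.49%, against 4.05%) and the 22 were 15 (1.63%, against 1.24%). The 5 that differed between populations at P0 became 0 at more than 30 points (against 0.183% of all bins) and 98 without a test (10.2%, against 10.6%). They became 3 with at least 4 CpGs (0.831%, against 1.02%), 0 with thinned calls (against 0.0908%) and 8 with bins shifted by 100 bp (0.839%, against 0.508%). The 4 at P21 became 1 at more than 30 points (0.104%, against 0.0728%), 95 without a test (9.87%, against 9.47%) and 2 with thinned calls (0.208%, against 0.0393%). Minima of 20 and 40 calls left the counts within 1.5 times. The gain of the Amn run in ISCs was 31.0 points on the plus strand and 39.4 on the minus strand; in differentiated cells it was 14.7 and 28.0, and 20.6 as a mean of bin levels, which also gave 9.44 points for the gap at P0.

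As a mean of bin levels, the sign turned for the gap at P0 in the promoters of Amn (0.802 points) and Dab2 (2.25) and upstream of Lrp2 (1.04), for the gap at P21 in the Dab2 body (-0.628) and for the age change of the Cubn body in ISCs (0.274). Within 500 bp of the TSS the Dab2 promoter changed by -0.145 points in ISCs and -0.00241 in differentiated cells. On 1 strand, the sign turned for the P0 gap of the Amn body (-0.376, minus), for the age change in differentiated cells of the last exon of Fcgrt (-6.31, minus) and upstream of Gif (-4.60, plus), and, added after the data were seen, for the bins of Cubn at 89050 bp (5.26, minus) and 250 bp (-6.92, plus) and of Fcgrt at 1091 bp (5.49, minus). With shifted bins the P21 gap in the last exon of Amn was 1.16 points. The causes were not tested. Of 668 comparisons of gene regions with an alternative, 563 moved by no more than the counting error, 94 by more and 11 turned sign. For gene regions, a turn of sign was counted and listed only where the interval of the reported difference lay away from 0.

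No paired analysis was possible because each group is 1 library, so that the groups of a comparison share only 1 replicate number. Depth limits the introns of Cubn and the bins of Gif most, where many bins had too few calls to be tested.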
